A study of Mus musculus with 16 samples.

Results

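Follicular B cells that carry a receptor against intestinal goblet cells (Auto.Pos) were compared with wild-type follicular B cells (WT), using the scanner files of 8 of the 16 arrays of the series. Follicular B cells are the mature, recirculating B cells of the lymphoid follicles, and all mice were of the C.B17 strain. The Auto.Pos mice (2 samples) bore the AGcAμκTg transgenes, a VH3609µ heavy chain with a Vk19-17κ light chain, although another field of the labels spells that light chain Vkappa17-17kappa. The WT mice (2 samples) had no transgene, by their label. The remaining samples were Auto.Neg (2 samples, ATAμκTg mice with a VH3609µ/Vk21-5κ receptor against Thy-1 on a Thy-1 knockout background) and Non-edited and Edited (1 sample each, VH3609t +/- x Vk21-5Tg +/- mice, also Thy-1 knockouts). The labels used here give neither the age of the mice, nor the promoters of the transgenes, nor whether 2 samples of one group are 2 mice. The p-values then reflect only how far these samples spread, which may be technical.

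Each sample was hybridised on a pair of 2-colour Agilent arrays with the dyes swapped, against a common reference of RNA from 6 cell lines, namely R1, RS2 and J558 with EL4, DN3 and P388d. A level below is the log2 ratio of sample over reference, averaged over the pair, so a negative level means that the B cells held less of the transcript than the reference did. A difference is Auto.Pos minus WT on the log2 scale, where 1 is a 2-fold difference. In bulk RNA, fewer cells of a type and less RNA per cell cannot be told apart.

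NOD1 and NOD2 are cytosolic receptors that bind fragments of bacterial cell wall and signal through the kinase RIPK2 to NF-kB, and the title of the series names Nod1 in mature B cells that have engaged antigen. The B cell receptor signals through CD79A and CD79B to the kinases LYN, SYK and BTK. Its signal is held in check by receptors such as CD22 and CD72, which recruit the phosphatase SHP-1, the product of Ptpn6. A mature B cell with a productive heavy and light chain normally shuts off further rearrangement, so a transgenic receptor keeps most endogenous variable genes out of use. Goblet cells are the mucus-secreting cells of the gut lining.

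The arrays differed in brightness. Between 66.6% and 71.0% of probes were well above background in the sample channel on the Auto.Pos arrays and between 64.6% and 81.9% on the WT arrays, by the scanner software's own mark, and 0 probes were saturated. The second array of WT sample 2 was much brighter than the others, with median intensities of 734.7 in Cy3 and 1039 in Cy5, against 101.5 to 225.7 and 92.23 to 286.8 on the other 15 arrays. Over the genes, each by its brightest kept probe, r was 0.904 between the 2 Auto.Pos samples and 0.923 between the 2 WT samples. Yet it was 0.978 between Auto.Pos sample 1 and Auto.Neg sample 2, which shared a slide, a scanner and a scan day. Auto.Pos sample 2 and WT sample 2 shared a scan day and had an r of 0.924. The 2 samples numbered 1 were processed with one protocol version of the scanner software and the 2 numbered 2 with a later one. The difference between same-numbered samples is therefore also a difference within a protocol version, and for number 2 within a scan day. The 2 samples numbered 1 were read on different scanners and scan days, and no Auto.Pos sample shared a slide with a WT sample. Their software version also differed, at 9.1.1.1 for Auto.Pos sample 1 and 9.1.3.1 for WT sample 1. The difference between same-numbered samples is given below, for number 1 first, as the difference within the numbers. Pan B cell markers were well represented: Ms4a1, which encodes CD20, lay at 9.24 and 8.91 in Auto.Pos against 9.57 and 9.41 in WT (a second probe differed by -0.10), and Fcer2a, the CD23 gene of follicular B cells, at 8.40 and 7.30 against 8.12 and 7.57. Of the 15 pan B cell markers tested 7 lay higher and 8 lower in Auto.Pos, with a median difference of -0.16. That median was -1.24 under scale normalization between arrays and 0.04 without WT sample 1.

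No gene passed the adjusted threshold. With limma and Benjamini-Hochberg adjustment over 20467 genes, 0 (0%) had an adjusted p under 0.05, and the lowest adjusted p was 0.0902. Under other settings the number was between 0 and 72, most of them immunoglobulin genes, except that scan day as a random block gave 4180, with its weight on the samples numbered 2. At an unadjusted p under 0.05 there were 1151 genes by limma, of which 705 (3.44% of those tested) lay higher in Auto.Pos and 446 (2.18%) lower. Both Auto.Pos samples lay above both WT samples for 3929 genes (19.2%) and below both for 2124 (10.4%). A stricter set held genes at least 2-fold apart in the same direction in all 4 sample pairs, with an unadjusted p under 0.05: 86 higher (0.42%) and 126 lower (0.616%). The 2 directions of that set differed in kind. Of the 126 lower genes 89 were immunoglobulin genes by name or by position in an immunoglobulin locus, against 4 of the 86 higher ones. Genes with a symbol that are not immunoglobulin genes made up 45 of the higher and 24 of the lower. The median difference over all genes was 0.06 (60.1% of genes higher). Median centring of each array in place of loess moved it to -0.06 (41.5% higher) and the stricter set to 46 higher and 142 lower, so that the higher genes were 24.5% of that set in place of 40.6%. On the arrays with the sample in Cy3 alone the set held 186 higher and 108 lower genes (63.3% higher). Differences of about 0.1 in either direction are thus within what the centring of the arrays decides.

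Nod1 lay higher in the goblet-cell autoreactive cells. Its single probe (chr6:54887383-54887442 in mm7, the build of the files' annotation) gave 5.45 and 5.08 in Auto.Pos samples 1 and 2, and 4.04 and 3.66 in the WT samples. The groups did not overlap, and the 2 samples of each group lay close together. The difference was 1.42 (SE 0.26, 2.67-fold), and it was 1.42 between the samples numbered 1 and 1.42 between those numbered 2. Its unadjusted p was 0.00278 and its adjusted p 0.4 by limma, so Nod1 did not pass over all genes. Leaving out each of the 4 samples in turn gave differences of 1.23 to 1.61. Nod1 read 2.89 and 3.23 in Auto.Neg, below both WT samples, 1.60 in Non-edited and 4.07 in Edited, so the level in Auto.Pos was the highest of the 5 groups.

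The other genes of the pathway went both ways. Of 29 genes listed for NOD-like receptors, their partners and the inflammasome 24 were tested, and 9 lay higher and 15 lower in Auto.Pos, with a median of -0.05 beside 0.06 over all genes. The groups did not overlap for 4 higher and 7 lower members, where 19.2% and 10.4% of all genes did not. An unadjusted p under 0.05 was held by 1 higher member (Nod1) and 4 lower members, beside 3.44% and 2.18% of all genes. Nod2 lay at -0.01 and 0.81 in Auto.Pos against 1.35 and 1.59 in WT. The Auto.Pos samples both lay lower, and the difference was -1.07 (SE 0.32, adjusted p = 0.725 by limma). Ripk2, the kinase that both receptors use, lay at -0.20 and 0.71 in Auto.Pos against 0.51 and 0.16 in WT; the groups overlapped, and the sample channel was well above background on 3 of 4 and 2 of 4 arrays. Slc15a3, which encodes an endolysosomal peptide transporter, differed by -1.23, Il18, a cytokine that caspase-1 processes, by -1.03, and Xiap, a ubiquitin ligase of the NOD2 complex, by -0.66, while a second Xiap probe differed by 0.28. Among members that lay higher, Casp4 read 2.91 and 2.01 against 1.64 and 1.48, and Casp1 1.84 and 1.59 against 0.64 and 1.12. Both encode inflammatory caspases, and for both the groups did not overlap.

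Cd9 had a larger difference than Nod1. It encodes a tetraspanin, a membrane protein with 4 membrane spans that is abundant on marginal zone B cells, B-1 cells, plasma cells and platelets. Its brightest probe (chr6:125482335-125482394) gave 5.89 and 5.94 in Auto.Pos against 3.83 and 4.02 in WT; both groups were tight and far apart. The difference was 1.99 (SE 0.26, 3.98-fold, adjusted p = 0.206 by limma), at 2.06 within the samples numbered 1 and 1.93 within those numbered 2. A second kept probe read 1.1 and 1.86 against 1.03 and 0.31, a difference of 0.81, and another, not well above background on any of the 8 arrays, differed by 0.06. Cd9 read 3.57 and 2.99 in Auto.Neg, with 2.78 for Non-edited and 5.29 for Edited. Of 20 marginal zone genes tested, Cd9 included, 13 lay higher and 7 lower, with a median of 0.24 beside 0.06 over all genes. That median turned to -0.06 without Auto.Pos sample 1 and was 0.07 by median centring. S1pr3, the receptor for sphingosine 1-phosphate of marginal zone B cells, lay at 1.61 and 0.46 in Auto.Pos against 2.90 and 2.15 in WT (difference -1.49, and 0.00 on a dimmer second probe). Cr2, the CD21 complement receptor, read 5.47 and 5.28 against 6.38 and 5.85 (-0.73; second probe -0.22). Cd1d1 differed by -0.21 and Notch2 by 0.55 (0.74 and 0.16 on other probes).

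**Figure D1:**
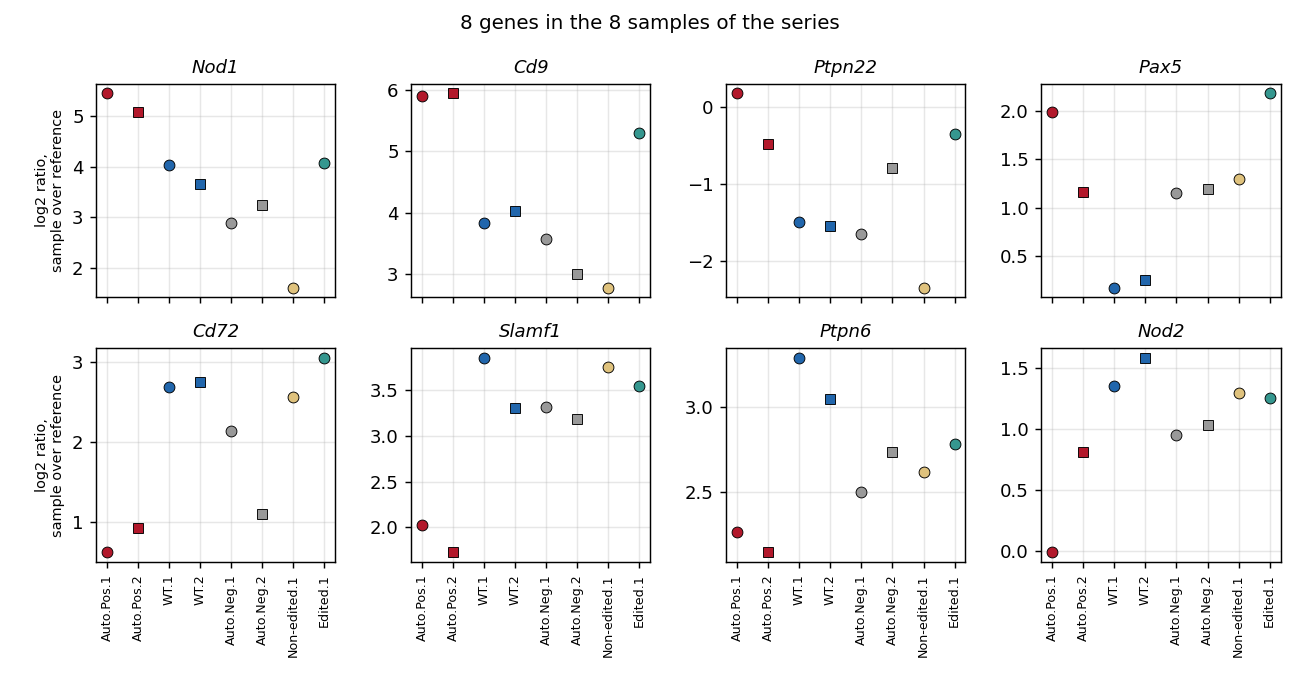
Level of 8 genes (log2 ratio of sample over reference, vertical axis, own scale in each panel) in each of the 8 samples of the series (horizontal axis); a point is 1 sample. Nod1, Cd9, Ptpn22 and Pax5 lie higher and Cd72, Slamf1, Ptpn6 and Nod2 lower in both Auto.Pos samples than in both WT samples; the Edited sample reads 4.07 for Nod1 and 5.29 for Cd9.

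Platelet genes as a list lay highest in Auto.Pos sample 1. Of 20 platelet and megakaryocyte genes tested, Cd9 included, 19 lay higher and 1 lower, with a median difference of 1.34. That median was 2.36 between the samples numbered 1 and -0.24 between those numbered 2, and without Auto.Pos sample 1 it was 0.13. The median level of the list was 2.13 in Auto.Pos sample 1 and 0.95 in sample 2, against -0.08 and 0.79 in WT, 0.22 and 0.29 in Auto.Neg, with 0.09 for Non-edited and 0.06 for Edited. Pf4, which encodes the chemokine platelet factor 4, lay at 0.67 and -2.47 in Auto.Pos against -3.93 and -0.32 in WT. Ppbp, another platelet chemokine gene, read 6.86 and 4.06 against 2.95 and 4.93. For both genes Auto.Pos sample 1 was highest and WT sample 1 lowest of the 4. Cd9 lay at 5.89 in Auto.Pos sample 1 and 5.94 in sample 2. In Auto.Pos sample 2 Pf4 and Ppbp were below WT sample 2, whereas Myl9, Alox12, Rgs18 and Ctla2a were above it. The part of platelet RNA in the Cd9 level of either Auto.Pos sample was not tested. Myl9, a myosin light chain, differed by 2.59 (4.29 and 0.89 within the numbers), Alox12, the platelet lipoxygenase, by 1.72 (2.38 and 1.06; second probe 0.83), Rgs18 by 1.54 (2.34 and 0.75; second probe 1.45) and Ctla2a by 2.62 on levels of 3.89 and 1.38 against -1.01 and 1.04.

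Among all named genes other than immunoglobulins, the 15 largest positive differences of the stricter set ran from 1.76 to 2.86. Nid1, which encodes the basement membrane protein nidogen and stands in the list of B-1 cell genes used below, lay at 4.62 and 4.85 in Auto.Pos against 3.16 and 0.59 in WT. Its difference was 2.86 (7.28-fold) and rested largely on the low WT sample 2, with 1.46 within the samples numbered 1 and 4.26 within those numbered 2. Ankrd33b read 3.01 and 2.87 against 0.74 and -0.48 (2.81, 7-fold), with 1.30 and 0.34 on 2 other kept probes, which did not overlap between the groups either. Grk3, a kinase that desensitises G protein coupled receptors, read 5.17 and 4.03 against 2.26 and 1.80 (2.57), yet a second kept probe read 0.40 and 0.35 against 0.66 and 0.14 (-0.02). Grk3 was the only one of the 15 whose kept probes differed in sign.

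Rcn3, a calcium-binding protein of the endoplasmic reticulum, had 2 probes that gave nearly the same values. The brighter read 1.67 and 1.43 against -0.29 and -1.02 (2.21, 4.62-fold) and the other 1.16 and 1.61 against -0.69 and -0.92 (2.18). Gchfr, the feedback regulator of GTP cyclohydrolase 1, read 1.24 and 1.68 against -0.39 and -0.20. Its difference of 1.76 (3.38-fold, SE 0.24) was close within the 2 numbers, at 1.63 and 1.88, and its adjusted p was 0.221 by limma. It read -0.81 and -0.61 in Auto.Neg, with -1.18 for Non-edited and -0.94 for Edited, below every Auto.Pos and WT sample. With the sample in Cy5 alone its adjusted p was 0.0406 by limma, while in Cy3 alone the lowest adjusted p of any gene was 0.399. Pls1, the actin-bundling plastin, read 4.0 and 4.93 against 2.23 and 2.72 (1.99), and Klf11, a Krüppel-like transcription factor, 1.09 and 2.47 against 0.08 and -0.61 (2.05; second probe 1.64). Dhx40, a putative RNA helicase, differed by 2.06 (1.72 and 2.39 within the numbers). Mex3b, an RNA-binding protein, differed by 1.94, with 1.95 and 0.22 on its other kept probes. Also among the 15 were Pgpep1l (2.32), Lysmd2 (2.27), Sh3bgrl2 (2.07) and Tanc2 (1.93). All of the 15 except Cd9 and Gchfr also had a higher mean in Auto.Neg than in WT, a difference that shares the WT samples. The smallest of these differences was 0.495, for Lysmd2. Auto.Neg minus WT was 2.44 for Pgpep1l, 2.11 for Pls1, 1.90 for Rcn3 and 1.62 for Dhx40, against -0.64 for Cd9 and -0.41 for Gchfr.

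**Figure D2:**
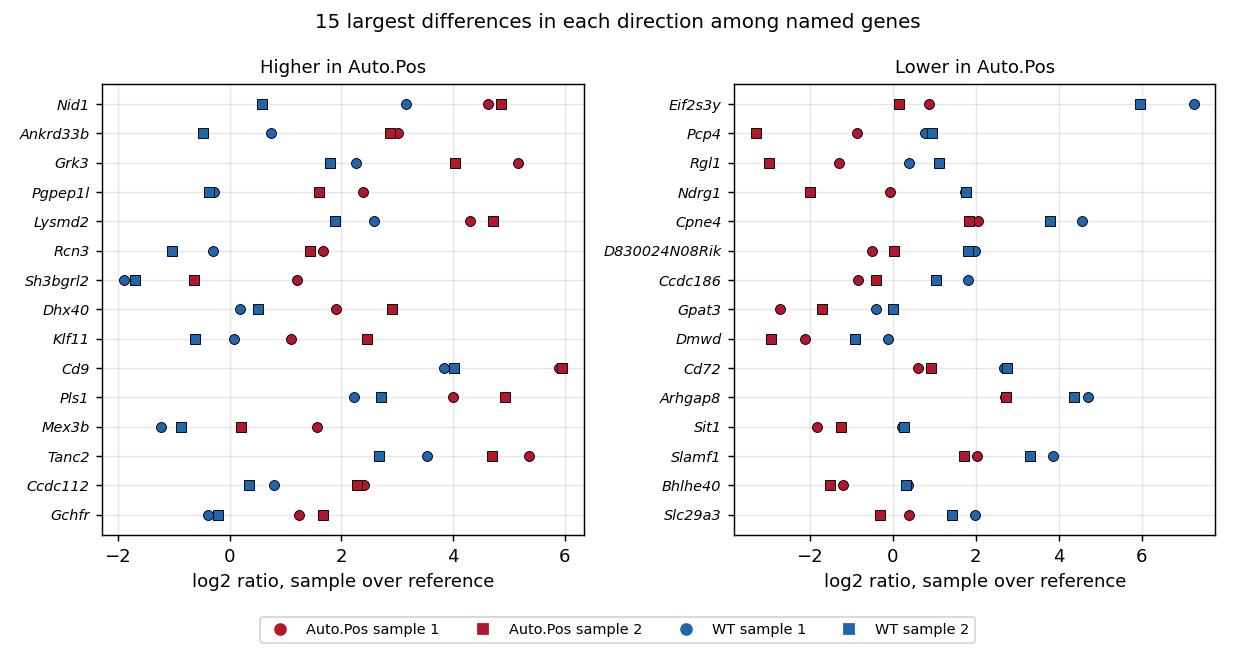
Level (log2 ratio of sample over reference, horizontal axis) of the 15 named genes with the largest positive (left) and the 15 with the largest negative difference (right) among those at least 2-fold apart in all 4 sample pairs; each point is 1 of the 4 samples, with the shape giving its number. The groups are separate in every row because the choice of genes required it; the WT samples of Nid1 (3.16 and 0.59) and the Auto.Pos samples of Pcp4 (-0.85 and -3.29) lie far apart.

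The largest negative differences, apart from the Y-linked gene described further on, included 3 genes of lymphocyte surface or adaptor proteins. Cd72, the inhibitory coreceptor that binds the semaphorin CD100, lay at 0.62 and 0.91 in Auto.Pos against 2.69 and 2.75 in WT. The difference was -1.96 (SE 0.38, 3.88-fold lower, adjusted p = 0.436 by limma), with -2.07 and -1.84 within the numbers, and a second probe read 0.46 and 0.66 against 2.41 and 2.44 (-1.86). Auto.Neg read 2.13 and 1.1, Non-edited 2.56 and Edited 3.05. Slamf1, the CD150 self-ligand receptor, read 2.02 and 1.73 against 3.85 and 3.30. Its difference was -1.71 (SE 0.27, adjusted p = 0.29), and a second kept probe, not well above background on any Auto.Pos array, differed by -0.14. All 4 other samples lay between 3.18 and 3.76, so the Auto.Pos samples were the lowest 2 of the 8. Sit1, a transmembrane adaptor of lymphocytes that binds SHP-2, read -1.81 and -1.24 against 0.24 and 0.28 (-1.79, 1 probe), with -0.46 and -1.24 in Auto.Neg. Cd72 and Sit1 lie close together on chromosome 4 (the probes of Cd72 start at 43463984 and 43464012, that of Sit1 at 43496076).

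Bhlhe40, a transcriptional repressor expressed in B-1 cells and in activated lymphocytes, read -1.19 and -1.51 against 0.36 and 0.33. Its difference of -1.69 (SE 0.25, 3.23-fold lower, adjusted p = 0.263 by limma) was -1.55 and -1.83 within the numbers. Ndrg1, a gene induced by hypoxia, read -0.05 and -2.0 against 1.76 and 1.77 (-2.79), and Pcp4, a calmodulin-binding peptide, -0.85 and -3.29 against 0.79 and 0.95 (-2.94; second probe -0.97). For both, Auto.Pos sample 2 was the lower of the pair. The mean of Auto.Neg lay below that of WT for all of the 15 lower genes, a difference that shares the WT samples. Auto.Neg minus WT was -2.19 for Gpat3, -2.16 for Pcp4, -1.75 for Ndrg1 and -1.31 for Bhlhe40. It was smaller for Slamf1 (-0.33) and Eif2s3y (-0.07). Rgl1, an exchange factor for Ral, differed by -2.90, with -2.56 and -0.92 on its other kept probes. Cpne4, a copine, differed by -2.24 (second probe -1.75, where the groups overlapped), and Gpat3, an enzyme of triglyceride synthesis, by -2.03 (second probe -1.24). Ccdc186 differed by -2.05 but by -0.25 on its second probe, and Slc29a3, a lysosomal nucleoside transporter, by -1.66 but by -0.07 and -0.02 on 2 others. D830024N08Rik (-2.13), Dmwd (-2.02) and Arhgap8 (-1.81) had 1 probe each. D830024N08Rik read -0.49 and 0.04 against 1.99 and 1.81, with an adjusted p of 0.18 by limma, and its level in Auto.Neg, Non-edited and Edited lay between -0.42 and -0.07, like that of Auto.Pos.

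Over these 30 genes 14 had more than 1 kept probe. In 9 of the 14 every kept probe separated the groups in the same direction, and in 13 every kept probe had the same sign, Grk3 being the exception. The counted probes include the one by which each gene was chosen, which separates the groups by that choice. Only the other probes could differ. Over all genes, each by 1 probe, the groups did not overlap for 19.2% higher and 10.4% lower.

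Components that carry the B cell receptor signal differed by between -0.89 (Vav1) and 0.79 (Malt1). Of 19 tested, 7 lay higher and 12 lower, with a median of -0.25 (-0.48 within the samples numbered 1 and -0.05 within those numbered 2), and the groups did not overlap for 2 higher and 6 lower members, where 19.2% and 10.4% of all genes did not. With the mean over the probes of a gene the median was -0.01, and under scale normalization -0.72. Cd79a read 3.37 and 4.95 against 3.85 and 4.12, and Cd79b 5.79 and 6.10 against 5.74 and 5.38. Lyn differed by -0.04 (second probe -0.16) and Btk by -0.01. The second probes of Vav1 and Malt1 differed by -0.34 and 0.36. Cr2, the complement receptor that lowers the threshold of the B cell receptor, differed by -0.73, with an unadjusted p under 0.05. Lck, a kinase known best from T cells and also made by some B cells, read -1.40 and -1.58 against -0.24 and -0.14. Its difference was -1.30 (SE 0.19, 2.46-fold lower, adjusted p = 0.263 by limma), while Cd3e differed by 0.23 and the 18 T cell markers tested by a median of 0.19 (0.58 and -0.30 within the numbers).

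The genes that restrain the receptor went both ways. Of 19 inhibitory receptors and phosphatases tested 8 lay higher and 11 lower, with a median of -0.06. Ptpn6 lay at 2.26 and 2.14 in Auto.Pos against 3.29 and 3.05 in WT (difference -0.97, SE 0.21, adjusted p = 0.498 by limma), with Auto.Neg between them at 2.50 and 2.73. That was its brightest probe, and 2 other kept probes differed by -0.07 and 0.26. Ptpn22, a phosphatase that acts on Src family kinases, read 0.18 and -0.48 against -1.50 and -1.55 (1.37). Cd22 read 3.53 and 4.80 against 5.68 and 4.62, so the groups overlapped (second probe -0.46). Dok1, an adaptor, differed by -0.71 (second probe -0.14). Inpp5d, which encodes SHIP-1, differed by -0.39, and Fcgr2b, the inhibitory Fc receptor, by 0.25 (0.18 and 0.32 on other probes).

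Genes induced by antigen engagement showed no common direction. Of 21 immediate early genes tested 13 lay higher and 8 lower, with a median of 0.13, which median centring turned to -0.05 and scale normalization to -0.01. Egr1 read 1.04 and 0.49 against 1.24 and 0.83, Nr4a1 1.45 and 0.59 against 1.02 and 1.00, and Myc -3.38 and -3.09 against -3.05 and -3.92; the groups overlapped for all 3. The other Myc probes differed by -0.09 and -0.76. Jund differed by 0.97 and Egr2 by -0.72, the extremes of the list. The 20 NF-kB genes tested had a median of 0.00, with 10 on each side, and Traf3, which restrains the alternative NF-kB pathway, read -0.07 and -0.23 against 0.61 and 1.44 (-1.17). Among 20 surface activation genes 8 lay higher and 12 lower (median -0.08), with Slamf1 the lowest.

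Survival genes also lay on both sides. Of 15 BCL2 family genes tested 7 lay higher and 8 lower (median -0.09), and Bcl2 (2.88 and 2.25 against 1.95 and 2.84) and Mcl1 (2.78 and 2.97 against 2.90 and 3.02) overlapped between the groups. Other kept probes differed by 1.40 and 0.19 for Bcl2 and by 0.69 for Mcl1. Bbc3, the death gene that encodes PUMA, differed by 1.14, and Bmf by -1.25 (0.17 and -0.18 on other kept probes). Pim1, a survival kinase, read 2.90 and 3.26 against 2.39 and -0.02, so its difference of 1.89 rested on WT sample 2 and was 0.51 between the samples numbered 1, with 0.17 on a second probe. Tnfrsf13b, the TACI receptor for BAFF and APRIL, differed by -0.75 (second probe 0.12). The 19 Toll-like receptor and CD180 complex genes had a median of -0.02, with Cd180 at 0.56 (second probe -0.16) and Ly96 at -0.76. Cd180 turned to -0.82 under scale normalization.

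Of the homing and developmental genes a few members stood out. Of 19 homing and egress receptors 11 lay higher and 8 lower, with a median of 0.10, which became -0.12 by median centring and -0.74 by scale normalization. Cxcr4, the receptor for CXCL12, read 2.04 and 1.1 against 0.68 and 0.11 (1.18; second probe 0.87), and Itga4, the α4 integrin subunit, 4.83 and 3.96 against 3.68 and 2.55 (1.28). The 5 other Itga4 probes differed by 0.76, 0.05, -0.04, -0.24 and -0.25. Cxcr3 differed by -0.64. Of 19 immature and recombination genes 13 lay higher and 6 lower, with a median of 0.18 (-0.05 under median centring). Lef1, a transcription factor of early B cells, read -3.58 and -4.69 against -5.70 and -5.66 (1.54; second probe 0.40), Dntt, the terminal transferase, differed by 0.72 (0.38) and Cd24a by -0.73. Pax5, which holds B cell identity, read 1.99 and 1.16 against 0.17 and 0.25 (1.37), and 0.28 on its second probe. Foxp1 differed by 0.69 on its brightest probe and by 0.41 and -0.04 on 2 others.

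Genes of other B cell fates were low or mixed. Of 16 B-1 cell genes 5 lay higher and 11 lower (median -0.15), with Nid1 and Bhlhe40 at the ends and Cd5 at 0.20. Of 15 plasma cell genes 5 lay higher and 10 lower (median -0.17). Sdc1, the CD138 gene, read -2.82 and -3.46 against -1.93 and -2.08 (-1.13), and Jchain, the joining chain of secreted antibody, -4.03 and -3.64 against -2.89 and -2.64 (-1.07; second probe -2.10), while Prdm1 differed by -0.08 and Fkbp11 by 0.57 (second probe 0.07). The 13 germinal centre genes had a median of 0.01, with Rgs13 at 0.80 and Basp1 at -1.0. Of the 22 cytokine receptors 11 lay on each side, and Il1r2, the decoy receptor for interleukin 1, read 1.09 and 2.41 against 0.26 and 0.06 (1.59; second probe 0.54).

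Antigen presentation and lipid synthesis had the medians farthest below 0 among the lists of B cell functions. Of 22 antigen presentation genes 6 lay higher and 16 lower, with a median of -0.32 (-0.32 and -0.26 within the numbers), and groups that did not overlap in 5, all lower (10.4% of all genes were lower without overlap). Its median was -1.21 under scale normalization, -0.50 by median centring, -0.62 without the bright array of WT sample 2 and -0.12 without Auto.Pos sample 1. Tapbp, the tapasin that loads class I molecules, read 2.84 and 2.88 against 3.92 and 3.89 (-1.04, SE 0.19, adjusted p = 0.368 by limma), but 0.30 higher on a second kept probe. The class II genes H2-Aa and H2-Ab1 differed by -0.07 (second probe 0.25) and -0.22 (-0.22, -0.09 and -0.14 on other probes). Of 23 cholesterol and fatty acid synthesis genes 7 lay higher and 16 lower, with a median of -0.35, and the groups did not overlap for 10 lower members and 1 higher one, beside 10.4% and 19.2% of all genes. Sqle, the squalene epoxidase, differed by -0.81, Insig1 by -0.63 (second probe -0.56) and Scd2, a fatty acid desaturase, by -1.22. Under scale normalization the median of that list was 0.06. Of 19 glycolysis genes 5 lay higher and 14 lower (median -0.17, and 0.14 under scale normalization), with Hk1, the first enzyme of the pathway, at -1.05; its 4 other kept probes differed by -0.96, -0.80, -0.29 and -0.13.

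Several lists shifted one way within the samples numbered 1 and the other way within those numbered 2. The medians were 0.53 and -0.31 for 24 cell cycle genes, 0.32 and -0.58 for 24 type I interferon response genes, and 0.65 and -0.26 for 10 NK cell markers. Of the cell cycle genes Ccnd2, cyclin D2, differed by -1.30 (-0.81 and -1.09 on other probes), and of the interferon genes Ddx58, the RIG-I sensor, by -1.26 (-0.13, 0.06 and -0.38 on other probes). The 22 Myc and nucleolar genes had a median of -0.02 (Cad -0.50, with -0.45, -0.65 and -0.42 on other probes, and Utp20 -0.86, with 0.04), and the 17 heat shock genes 0.11 (Hsp90aa1 0.86). Of markers of other cell types, 20 of macrophages had a median of -0.21 (Spic 1.66, second probe 1.22, C1qc -0.95), 10 of dendritic cells 0.13 (Cst3 0.41, Ccr9 -0.02), 13 of neutrophils -0.14 (Csf3r -0.54) and 8 of erythroid cells -0.45. Klrd1, an NK cell receptor, differed by 0.51. Across the 32 lists 0 members passed an adjusted p of 0.05 by limma. Leaving out 1 of the 4 samples turned the sign of the median in 21 of the 32 lists for at least 1 choice of sample, median centring in 9 and scale normalization in 10.

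**Figure D3:**
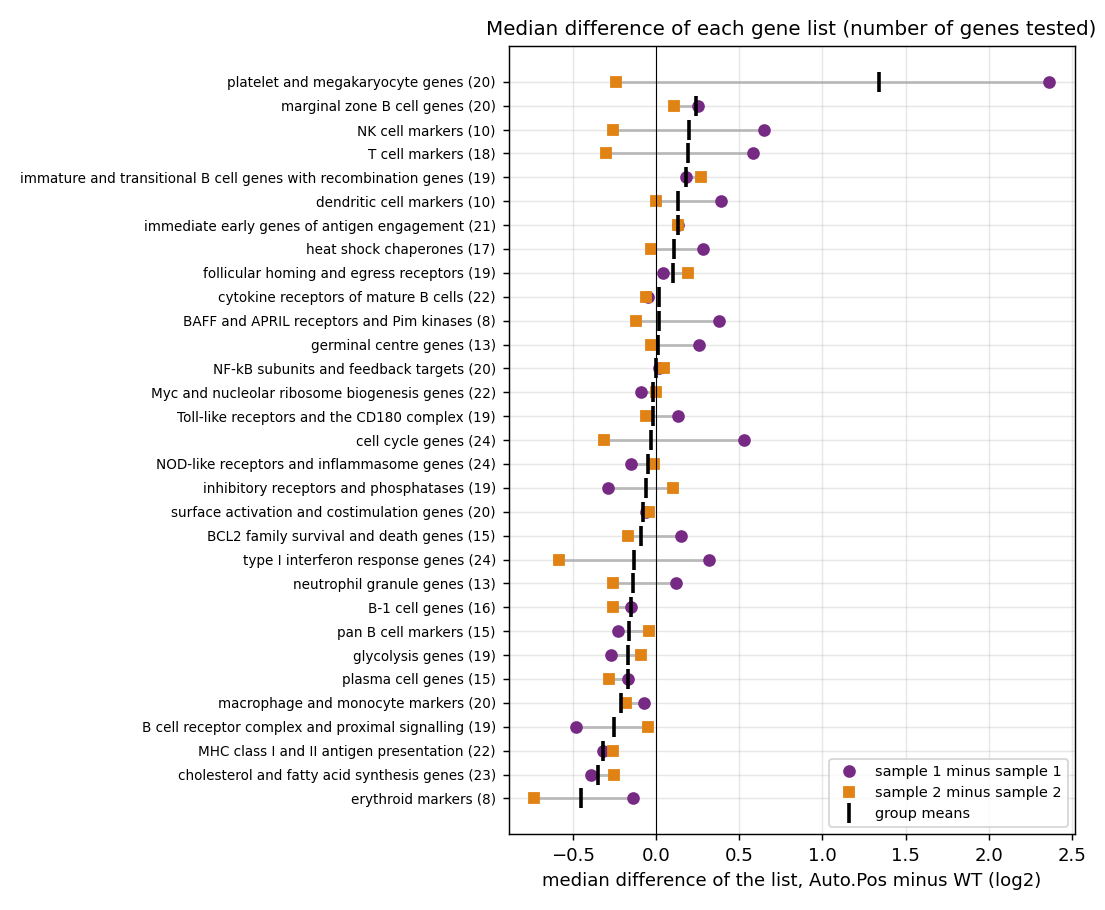
Median difference (Auto.Pos minus WT, log2, horizontal axis) of each gene list (rows, with the number of genes tested), between the samples numbered 1 (circles), between those numbered 2 (squares) and between the group means (bars). The platelet list spreads from 2.36 to -0.24, while the antigen presentation list (-0.32 and -0.26) and the cholesterol list (-0.39 and -0.25) lie on 1 side of 0.

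The sex-linked genes differed between the samples of the Auto.Pos group. Xist, which is transcribed from the inactive X chromosome of females, read 0.02 in Auto.Pos sample 1 and 9.12 in sample 2, against -0.57 and -0.14 in WT. That is its brightest probe, and the others differed by 4.13, 0.44 and 0.36 between the group means, against 4.93. The Y-linked genes Ddx3y and Kdm5d read 2.69 and 2.06 in Auto.Pos sample 1, near the WT levels of 1.54 and 1.97 for Ddx3y and 1.56 and 2.44 for Kdm5d, but -3.85 and -2.58 in sample 2. Both Auto.Neg samples had low Xist and both single-sample groups high Xist (9.80 in Non-edited and 10.12 in Edited). Auto.Pos sample 2 thus read as female and the other 3 samples as male by these genes, and sex cannot be told apart from the sample in this comparison.

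Eif2s3y, the Y-linked subunit of a translation initiation factor, did not go with the other Y-linked genes. It lay at 0.89 and 0.15 in Auto.Pos against 7.25 and 5.96 in WT, and 6.48 and 6.59 in Auto.Neg. Auto.Pos sample 1 therefore had Ddx3y and Kdm5d at WT levels and Eif2s3y near that of the Non-edited and Edited samples (-0.10 and 0.03). The difference of -6.09 (SE 0.50, 68.0-fold lower) had an adjusted p of 0.0902 by limma, and it was the only one of the 13 genes with an adjusted p under 0.1 that was not an immunoglobulin gene by name or position; all 13 lay lower. It rests on 1 probe, which 2 of the 4 Auto.Pos arrays and all 4 WT arrays read well above background. Without the bright array of WT sample 2 the adjusted p was 0.0163. Among autosomal genes that are not immunoglobulin genes the lowest adjusted p was 0.167 by limma. Thy1, the antigen of the Auto.Neg receptor, was low in both groups, at -3.73 and -4.22 in Auto.Pos against -4.31 and -4.54 in WT, and a second probe differed by -0.01.

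**Figure D4:**
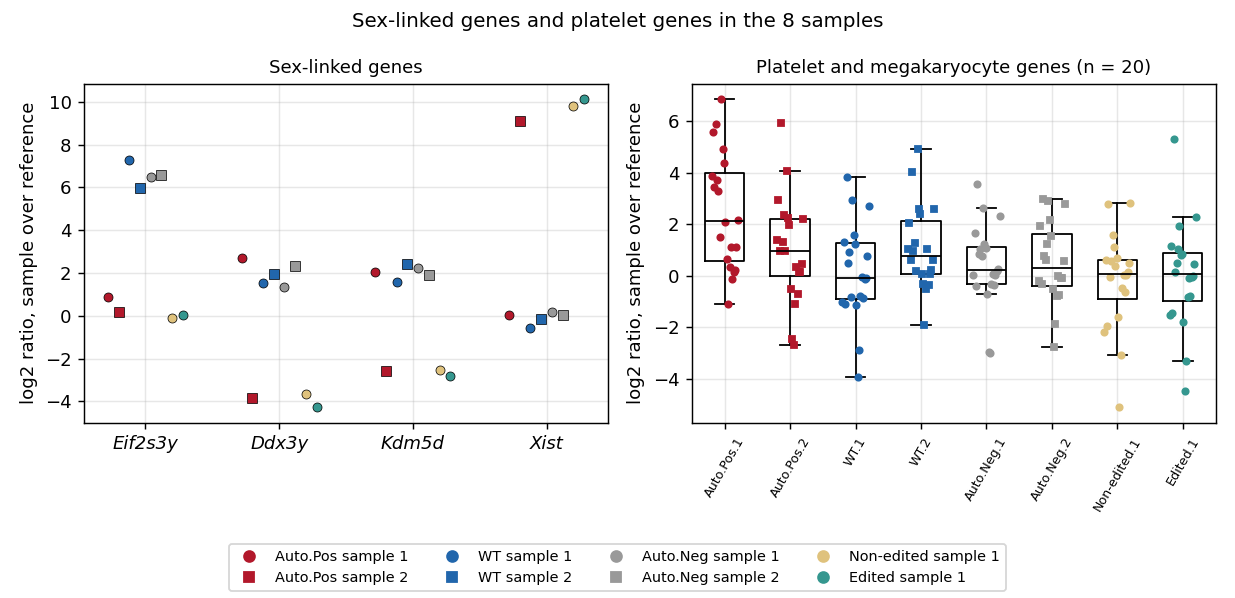
Left, level (log2 ratio of sample over reference, vertical axis) of 4 sex-linked genes in the 8 samples; right, levels of the 20 platelet and megakaryocyte genes in each sample (points are genes, boxes the quartiles, whiskers up to 1.5 times the interquartile range). Eif2s3y lies at 0.89 and 0.15 in Auto.Pos although Ddx3y reads 2.69 in Auto.Pos sample 1, and the platelet median is highest in Auto.Pos sample 1 (2.13).

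Immunoglobulin genes held most of the large differences. They are given as units, each a gene, transcript or accession that the array's annotation places under one immunoglobulin name. The sequences printed here are those of the probes, since variable genes are so alike that a probe may also bind transcripts of relatives, and the labels and files do not name any unit as VH3609 or Vk19-17. The first pair shows the kappa units with the largest positive and the largest negative difference, and capitals mark the longest run that both probes share, 13 bases.
ENSMUST00000066275 (chr6:70092051-70092110, mm7): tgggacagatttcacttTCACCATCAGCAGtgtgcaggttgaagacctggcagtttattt
Igkv14-111 (chr6:68232832-68232891): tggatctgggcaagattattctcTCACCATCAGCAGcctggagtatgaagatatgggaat
The second pair shows the heavy chain units with the largest positive and the largest negative difference, which share a run of 7 bases, in capitals.
LOC619916 (chr12:113252694-113252753): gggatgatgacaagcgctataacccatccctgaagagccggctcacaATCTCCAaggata
M19902 (chr12:111146928-111146981): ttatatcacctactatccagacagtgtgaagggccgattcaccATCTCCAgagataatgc

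Most units lay far lower in Auto.Pos. Of 112 units tested 105 lay lower and 7 higher, with a median difference of -2.27 beside 0.06 over all genes. The groups did not overlap for 98 lower and 5 higher units, where 10.4% and 19.2% of all genes did not. An unadjusted p under 0.05 by limma was held by 84 lower and 3 higher units, beside 2.18% and 3.44% of all genes, and an adjusted p under 0.05 by 0. By chain, the median was -2.58 over 55 heavy chain units (50 lower) and -2.22 over 55 kappa or other light chain units (53 lower), and -0.41 over 2 lambda units. Every unit was well above background on at least 1 WT array, whereas 26 units (16 heavy, 10 kappa) were not well above background on any Auto.Pos array, so for these the level in Auto.Pos is only an upper bound. The median level over all units was 0.04 and 0.24 in Auto.Pos against 3.02 and 2.04 in WT. It was 0.17 and 0.17 in Auto.Neg, with 0.09 for Non-edited and 1.29 for Edited.

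**Figure D5:**
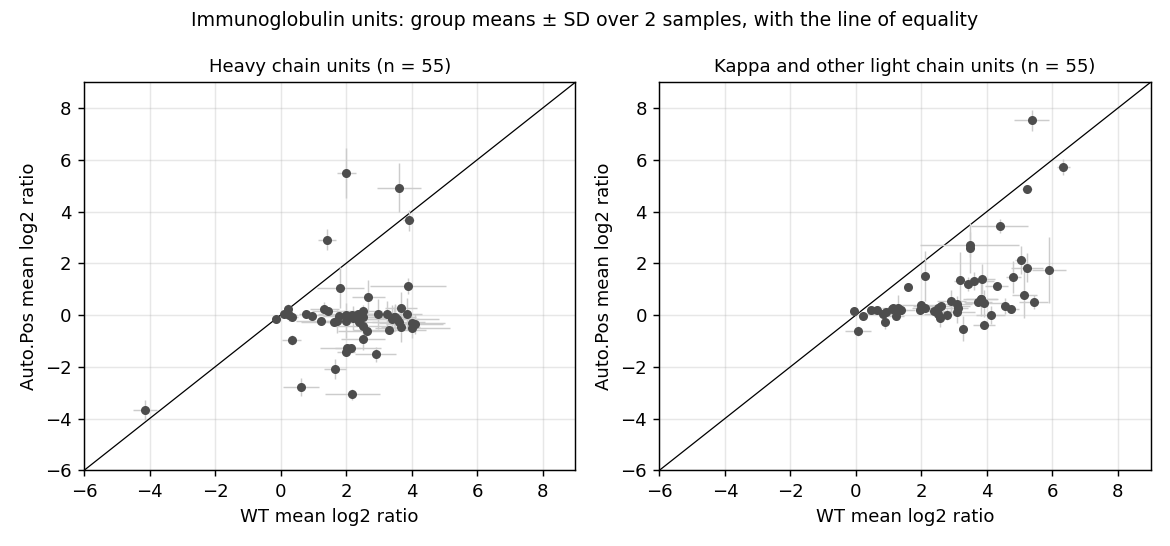
Mean level in Auto.Pos (vertical axis) against WT (horizontal axis), both log2 ratios of sample over reference, for 55 heavy chain units (left) and 55 kappa or other light chain units (right); bars are the SD over 2 samples and the line marks equal levels. All but 5 heavy and 2 kappa units lie below the line.

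The lowest units had levels in Auto.Pos close to or below the reference. Igkv14-111 lay at 0.33 and 0.70 in Auto.Pos against 5.74 and 5.11 in WT, a difference of -4.91 (SE 0.31, adjusted p = 0.0902 by limma). It was 2.90 and 2.54 in Auto.Neg, with 2.40 for Non-edited and 4.53 for Edited. LOC675694, a kappa unit, read 0.14 and 0.32 against 4.91 and 4.59 (-4.53, adjusted p = 0.0902). M19902 read -2.91 and -3.23 against 2.79 and 1.60 (-5.26, 38.4-fold lower, adjusted p = 0.118), AY172876 differed by -4.44, and ENSMUST00000084869 by -4.53 with 2 of its 4 Auto.Pos arrays well above background. All 5 had 1 kept probe, and the sample differences within each number had the same sign for each of them. With the sample in Cy5 alone 65 immunoglobulin genes passed an adjusted p of 0.05 by limma, and without the bright array of WT sample 2 the number was 44, Igkv14-111 (adjusted p = 0.0163), LOC675694 (0.0163) and M19902 (0.0367) among them. On the arrays with the sample in Cy3 alone 0 genes passed, and the lowest adjusted p was 0.399 by limma.

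A few units lay higher, and for LOC619916, ENSMUST00000066275 and Igh-VJ558 the kept probes disagreed. LOC619916 lay at 6.16 and 4.79 in Auto.Pos against 2.22 and 1.80 in WT (3.47, SE 0.49, 11.1-fold, adjusted p = 0.238 by limma). All 4 other samples, whose mice carry a VH3609 chain too, lay as high, between 5.14 and 5.79, so the high level was shared by every transgenic group. The unit's other kept probe lies at another place of the locus (chr12:113245473-113245532) and read -1.31 and -0.51 against 2.54 and 2.20 (-3.28). ENSMUST00000066275 lay at 7.81 and 7.25 in Auto.Pos against 5.75 and 4.98 in WT (2.17, 4.5-fold). In contrast to the heavy chain unit it was lower in Auto.Neg, at 2.62 and 3.71, and in Non-edited, at 4.2, and it was 6.37 in Edited. Its other kept probe (chr6:70092163-70092222), read 0.15 and 2.05 against 3.71 and 2.96 (-2.23), so the mean over both probes was -0.03. The sequences of these other probes are printed to set beside those above.
LOC619916, other probe: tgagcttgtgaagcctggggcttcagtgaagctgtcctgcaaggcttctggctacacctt
ENSMUST00000066275, other probe: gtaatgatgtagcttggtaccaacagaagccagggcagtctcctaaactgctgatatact
ENSMUST00000003582, a heavy chain unit, read 3.21 and 2.63 against 1.62 and 1.22 (1.5) and was 2.66 and 2.56 in Auto.Neg but 1.44 and 1.60 in Non-edited and Edited. ENSMUST00000074486 differed by 1.30. Igh-VJ558, a name shared by 9 kept probes, differed by 0.46 on its brightest probe and by -5.43 to 0.23 on the others.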

How the data were processed

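Per the file headers, the scanner files hold raw spot and background intensity in both channels, written by Feature Extraction 9.1.1.1, 9.1.3.1 and 9.5.1.1, and the authors' own log10 ratio of red over green. The series table deposited beside them gives log2 ratios, 1 column per array; the submitters' processing notes name limma, and further steps are not stated in the sources at hand. Per the labels' protocols, 100 ng of RNA were amplified per sample. The series table was an alternative only, since only 6 of its 16 columns correlated best with the scanner file of their own label.

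In R 4.3.3 with limma 3.58.1 and data.table (version 1.17.8), mean foreground was corrected with normexp (offset 50) and each array then loess-normalized; control spots had weight 0 and outlier spots (0.33%) were dropped. First arrays held the sample in Cy5 and second arrays in Cy3; all ratios were oriented as sample over reference, then averaged per sample. Of 41174 probes 29637 were kept, those well above background on the 2 arrays of each of 2 or more samples. The brightest kept probe stands for a gene, and 356 gene-by-sample values rest on 1 array. Probes were named through RefSeq by accession (22972), symbol (6644) or synonym (3105), otherwise by the file (8453).

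limma was fitted to all 8 samples with 1 mean per group (3 residual and 2.11 prior degrees of freedom). Called means an adjusted p under 0.05. In data simulated from the gene means and residual spreads, 0% of genes changed by 1 on the log2 scale were called. The share was 40% for a change of 2, 80% for 4 and 96% for 6, and 6 unchanged genes were called. The simulated noise was independent between samples, whereas some real samples shared a slide or scan day. These shares therefore need not hold for the arrays, where 0 genes were called although Eif2s3y differed by -6.09. Named were the 15 largest differences per direction among symbol-bearing genes 2-fold apart in all 4 sample pairs at an unadjusted p under 0.05, list members at that p or else the ends of a list, Nod1, Nod2, Ripk2, Cd9, Thy1 and sex-linked genes, and the 5 highest and 5 lowest immunoglobulin units. Bcl2, Cd79a and other members beyond this rule were named after their values were seen. One of the 15 higher genes is shown only in the plot. The members and lists were chosen with earlier results of these data known. Alternatives changed background correction, normalization, ratio source, filter, probe choice, samples, blocks and dye. The number of arrays limits the precision.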

Additional observations from a re-analysis of the deposited data

How the results depend on the processing

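Most alternatives kept 0 called genes; those that did not were scale normalization (6, all immunoglobulin), the scanner software's log ratio (15, all immunoglobulin), Cy5 arrays alone (72, of which 65 immunoglobulin), omission of the bright array of WT sample 2 (46, of which 44, an alternative chosen after seeing the data) and scan day as a random block (4180, of which 2452 higher), whose fitted correlation of 0.918 puts weight on the pair of samples numbered 2. A block on slide could not be fitted. Same-numbered Auto.Pos and WT samples deviated together with an r of 0.252, Auto.Pos and Auto.Neg with -0.788. The replicate block, which holds Auto.Neg too, called 0 genes and left 85 higher and 125 lower in the 2-fold set. Auto.Neg sample 2 shared the slide, scan day and protocol version of Auto.Pos sample 1, and Auto.Neg sample 1 had the later version. The numbers thus pair Auto.Neg across protocol versions, so this block cannot show what pairing by slide or scan day would do. Blocking the protocol version of the scanner software called 0, with 2200 genes at an unadjusted p under 0.05 by limma. Leaving out either Auto.Neg sample, added after seeing the data, also called 0 (87 higher and 126 lower in the 2-fold set), as did leaving out each Auto.Pos or WT sample (0 to 0). The 2-fold set of 86 higher and 126 lower genes became 46 higher by median centring, 184 and 216 by the scanner's log ratio, 11 and 16 by the series table, and 186 higher by Cy3 arrays alone; leaving out samples of the 2 groups gave 217 to 462 higher and 205 to 322 lower, with fewer pairs to satisfy.

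Counting each named gene under each alternative, 2056 differences kept sign and side of the threshold over these alternatives, 109 passed it, 91 of them by the scan day block, and 49 turned sign. Some alternatives leave the difference between the group means as it is, so no sign could turn. These are the fit of Auto.Pos and WT alone, the replicate and protocol blocks, and the omission of either Auto.Neg sample. Each adds 101 to the 2056, and omitting an Auto.Neg sample repeats the fit of Auto.Pos and WT alone. Under the series table, whose columns mix the groups, turned Pgpep1l (-0.12), Pls1 (-0.10), Mex3b (0.00), Cpne4 (0.21), Ccdc186 (0.45), Gpat3 (0.16), Slc29a3 (0.07), Cr2 (0.01), Bmf (0.23), Tnfrsf13b (0.16), Xiap (0.11), S1pr3 (0.02), Cd24a (0.37), Lef1 (-0.40), Rgs13 (-0.91), Sdc1 (0.33), Hsp90aa1 (-0.05), Utp20 (0.14), Sqle (0.28), Insig1 (0.03), Pax5 (-0.06), Rgs18 (-0.49), Ripk2 (0.17), LOC619916 (-0.16), ENSMUST00000074486 (-0.11), Igh-VJ558 (-0.64), ENSMUST00000084869 (0.38) and AY172876 (0.49). Scale normalization turned Cd180 (-0.82), Ebi3 (-0.02), Cst3 (-0.24) and Ccr9 (0.50), and Cy5 arrays alone Insig1 (0.06) and Ccr9 (0.15). Ripk2 (-0.07) became 0.03 without background correction, 0.14 by the scanner's log ratio, 0.46 by the scan day block and 0.04 on Cy3 arrays, and ran from -0.53 to 0.38 when single samples were left out (0.10 without WT sample 1). That range was -0.04 to 1.64 for Rgs13, -0.58 to 0.53 for Ccr9 (0.28 without Auto.Pos sample 1), -5.61 to 0.93 for Ddx3y and -4.58 to 0.06 for Kdm5d, the last pair turning without Auto.Pos sample 2. The mean over probes turned ENSMUST00000066275 (-0.03) and Igh-VJ558 (-2.04), and omission of the bright array Ccr9 (0.06) and Igh-VJ558 (-0.01). Of the list medians 633 stayed within the replicate spread and 70 moved. Those under the alternatives that leave the group difference as it is could not move. Causes were not tested.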

Other observations

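Ebi3, which encodes a subunit shared by heterodimeric cytokines of the interleukin 12 family, had a level of 3.82 in each Auto.Pos sample against 3.24 and 3.03 in WT. The other 4 samples lay between 3.68 and 4.01, so the WT samples were the lowest 2 of the series. Foxp1 had another order on its brightest probe, with Auto.Neg (2.57 and 2.43) near WT (2.44 and 2.48) and below Auto.Pos (3.01 and 3.29). Non-edited (2.87) lay below both Auto.Pos samples and Edited (3.205) between them, so the high level was not confined to Auto.Pos. A second Thy1 probe read -0.55 and 0.46 in the Auto.Neg samples, from Thy-1 knockout mice, against -2.93 and -3.77 in the Auto.Pos samples and -3.62 and -3.06 in WT, while the brightest Thy1 probe lay between -4.54 and -3.73 in all 6.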
